A study of Homo sapiens with 33 samples.

Results

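The genes described here carry the signal of tumour necrosis factor (TNF) and its relatives from the cell surface to survival or death. They were chosen by symbol: every spot whose platform annotation holds exactly 1 gene symbol, where that symbol starts with TNFRSF, TNFSF, TRAF, CASP, BCL2, BIRC or RIPK or is FADD or TRADD, with 1 BIRC gene left out. This gave 67 of 34560 spots on the membrane, for 37 genes, of which 16 have 1 spot and 21 have several. By role they are 10 spots of 7 receptors, 7 spots of 4 ligands, 17 spots of 9 adaptors and kinases, 3 spots of 3 TRAF-associated proteins, 9 spots of 4 caspases, 1 spot of a caspase-associated protein, 13 spots of 6 BCL2 family genes, 4 spots of the inhibitor BIRC6, and 3 spots of 2 antisense RNAs (TNFRSF14-AS1 and TRAF3IP2-AS1) whose symbols begin like those of the genes they overlap. TNFRSF1A and TNFRSF1B, the receptors that bind TNF itself, and TNFRSF10A, RIPK1, TRAF2 and BCL2 have no spot of their own among these and were not analysed here.

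Ligands of the TNF family cluster their receptors, and the receptors gather adaptor proteins on the inner face of the membrane. TRADD, RIPK and TRAF proteins pass the signal on to the kinases that release NF-kB, which turns on inflammatory and survival genes, whereas FADD recruits CASP8 and CASP10, which start a cascade of proteases that kills the cell. BCL2 family proteins decide at the mitochondrion whether that cascade is amplified, and BIRC proteins hold caspases in check. Monocytes are a main source and target of TNF, and intestinal epithelium is a tissue that TNF damages in chronic inflammation.

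RNA came from 2 human cell lines: CaCo-2, a colon carcinoma line with epithelial features that grows attached, and THP-1, a monocytic leukaemia line. Cells of each line were either given recombinant human TNF-alpha at 5 ng per ml for 60 min or left unstimulated. No genetic change was made, so all groups carry only the alterations of their line of origin, and each line stands for 1 tumour. Complementary DNA labelled with a radioactive nucleotide was hybridised to nylon membranes, and 22 arrays entered the fits: 5 CaCo-2 TNF, 5 CaCo-2 control, 7 THP-1 TNF and 5 THP-1 control arrays. Nothing in the labels says that arrays of a group came from separate cultures, so p-values reflect only how arrays vary among themselves, and that variation may be technical.

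Of the 33 deposited columns, 10 repeat another column at about 3 times its scale and were counted once, and 1 such pair, whose columns are labelled CaCo-2 control and CaCo-2 TNF, was left out. THP-1 control 3 exists only on the larger scale and was divided by 3. Its lowest positive reading was then 0.0378, against 0.0921 to 0.136 on the other arrays. Columns on that scale were treated as sums of 3 components, so a component at 0 would leave the divided value too low. Whether this happened in control 3 was not tested. CaCo-2 TNF 6 and CaCo-2 control 5 stand apart, with highest readings of 133.4 and 134.6 against at least 142.4 elsewhere, and over 6401 spots their deviations from their group means correlated at r = 0.73. CaCo-2 TNF 1 and TNF 2 likewise deviated with CaCo-2 control 1 (r = 0.67 and 0.66). Of the monocyte markers 6 of 18 genes had a spot, and their summed intensity was 0.652 to 1.72 in CaCo-2 TNF, 0.655 to 1.47 in CaCo-2 control, 1.33 to 1.85 in THP-1 TNF and 1.59 to 1.87 in THP-1 control arrays. Among them LAPTM5, a lysosomal protein of blood cells, was above 0 on 1 of 5 CaCo-2 TNF and 0 of 5 CaCo-2 control arrays, against 7 of 7 THP-1 TNF and 5 of 5 THP-1 control arrays, but TYROBP was above 0 on 5 of 5 CaCo-2 TNF and 5 of 5 CaCo-2 control arrays, PTPRC on 4 and 5, and CSF1R on 5 and 3. Of 5 monocyte spots tested in the TNF-treated lines 2 were higher in CaCo-2 and 0 were called. Of the intestinal epithelial markers 5 of 20 genes had a spot, and their sums overlapped between the lines (2.05 to 2.78 in CaCo-2, 2.26 to 2.83 in THP-1). Of 5 epithelial spots tested in the TNF-treated lines 3 were higher in CaCo-2, and the 1 called was VIL1, the brush border protein villin (difference between lines 0.13 ± 0.03 SE on the log2 scale, limma adjusted p = 0.0300). The ELF3 spots went opposite ways: 85B06 was above 0 on 2 CaCo-2 TNF and 0 CaCo-2 control arrays, against 6 THP-1 TNF and 5 THP-1 control arrays, and 88A17 on 3 and 5 CaCo-2 arrays against 0 and 0 THP-1 arrays.

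A recognition sequence for NF-kB, the factor that TNF signalling releases, was searched for on both strands of the 300 bases around 1 start per gene in the RefSeq promoter table (assembly GRCh38.p14), which holds 27 of the 37 genes. The consensus was found in 4 of these 27 promoters (14.8%), those of BIRC6, TNFRSF14, TNFRSF25 and TRAF3, and in 1562 of all 27305 promoters (5.72%). The promoters of TRAF3, an adaptor that restrains NF-kB signalling, and TNFRSF14, a receptor for the ligand LIGHT, are shown as an example of an adaptor and of a receptor. Each runs 5′ to 3′ on the plus strand across the start that the promoter table uses, with the matching bases in capitals. The match begins 33 bases before the start of TRAF3 (chr14:102777199-102777498) and 84 bases before that of TNFRSF14 (chr1:2556121-2556420). The start used for TNFRSF14 lies inside the annotated gene, whose first base is at 2554234. A match describes these letters only and is not evidence of binding.
TRAF3: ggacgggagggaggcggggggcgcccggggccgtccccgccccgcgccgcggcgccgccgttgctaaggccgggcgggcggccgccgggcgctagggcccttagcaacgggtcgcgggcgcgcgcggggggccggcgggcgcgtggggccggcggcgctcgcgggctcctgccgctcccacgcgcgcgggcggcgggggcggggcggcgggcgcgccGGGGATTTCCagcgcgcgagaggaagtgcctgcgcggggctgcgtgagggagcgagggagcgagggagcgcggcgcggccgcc
TNFRSF14: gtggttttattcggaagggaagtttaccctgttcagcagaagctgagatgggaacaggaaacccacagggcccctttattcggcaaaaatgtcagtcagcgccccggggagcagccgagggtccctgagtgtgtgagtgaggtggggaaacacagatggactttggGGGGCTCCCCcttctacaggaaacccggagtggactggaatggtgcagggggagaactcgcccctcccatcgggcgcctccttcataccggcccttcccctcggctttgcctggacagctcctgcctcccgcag

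About 1 in 3 readings of these spots was an exact 0, which has no stated meaning. Readings at 0 made up 35.1% of those of the 67 spots and 34.4% of those of all spots, and 15 of the 67 spots (22.4%) were above 0 on all 22 arrays, against 6401 of 34560 (18.5%). In the 9 repeated columns with matching labels, 103 of 224 member readings at 0 (46%) had a value above 0 in the other column. The remaining 121 were 0 there as well. The other column is on the larger scale and was treated as a sum, so it can be above 0 where the single column is not. The meaning of a 0 cannot be settled from these pairs. A 0 was treated as missing, and a spot was tested where at least 3 arrays of each group had a value. The 15 spots read on every array belong to the receptors TNFRSF10B and TNFRSF6B, the ligands TNFSF8, TNFSF10 and TNFSF13B, the adaptors TRADD, TRAF5 and TRAF7, TRAFD1, CASP10, the BCL2 family genes BCL2L11 and BCL2L13, and TRAF3IP2-AS1.

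TRAF6, an adaptor that also serves interleukin-1 and Toll-like receptors, was at 0 on all 5 CaCo-2 TNF arrays at spot 50I13, against a value on 4 of 7 THP-1 TNF arrays. CASP8, the protease that FADD recruits, was at 0 on all 5 CaCo-2 TNF arrays at its only spot, 85A17, against a value on 5 of 7 THP-1 TNF arrays, and it had a value on 2 of 5 control arrays in each line. These are 2 of 67 spots (2.99%) at 0 throughout CaCo-2 TNF and above 0 on at least 3 THP-1 TNF arrays, against 1.55% of all spots. Spot 50I13 of TRAF6 was also at 0 on all 5 THP-1 control arrays, which makes 1 of 67 (1.49%) for THP-1 TNF against THP-1 control, with 1.3% of all spots. In the repeated columns 4 of 7 readings at 0 of TRAF6 50I13 and 3 of 6 of CASP8 had a value above 0 in the other, larger-scale column. Whether these zeros mean an absent signal cannot be told from the pairs. TRADD, the first adaptor on the TNF receptor, had a value at spot 43B24 on 4 of 10 CaCo-2 arrays and 12 of 12 THP-1 arrays. However, 4 of its 5 readings at 0 in repeated columns had a value in the other column, and its other spot had one on every array. The share of all spots with so large a gap was not computed, so these counts describe TRADD 43B24 only.

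**Figure D1:**
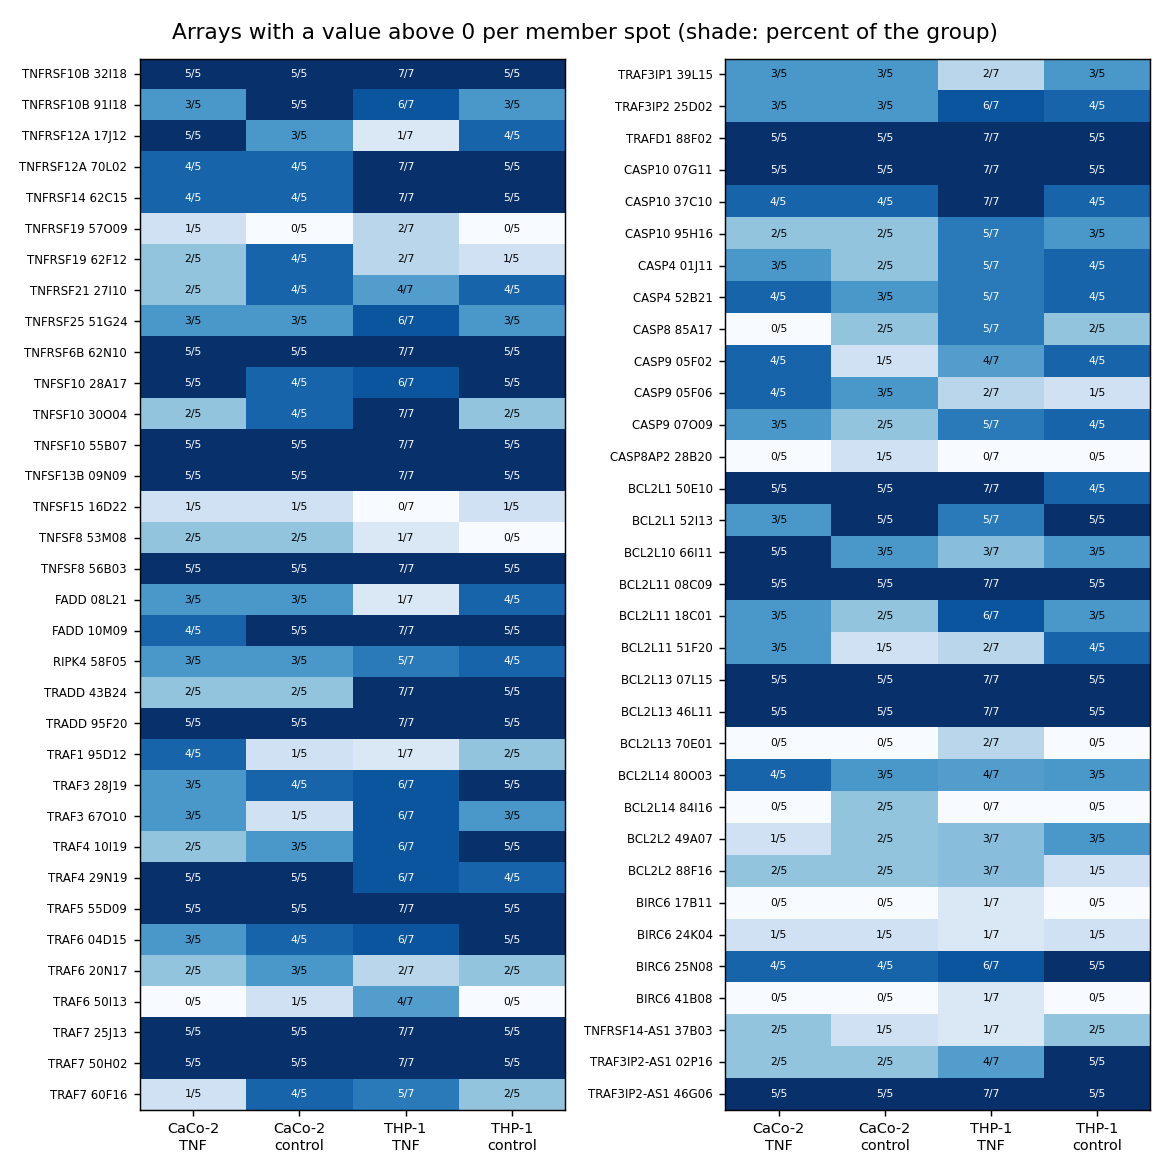
Number of arrays with a value above 0, out of the arrays of the group, for each of the 67 spots (rows) in the 4 groups (columns); darker shades mark a higher percent. Rows of 1 gene often differ, as for BCL2L13, where 2 spots were read on every array and the third on 2 of 22.

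After 60 min of TNF none of the death and survival genes measured in CaCo-2 cells passed the test. Of 37 spots tested 0 were called, with percent called 0 over all 19479 spots tested as well; at an unadjusted limma p under 0.05 there were 2 of 37 member spots, against 479 spots (2.46%) overall. Log2 differences (TNF minus control) ran from -0.10 to 0.12, 18 above 0 and 19 below, with a median of -0.0015, against 0.0087 for all spots. Every 95% interval of the 37 lay inside ±0.5, the outermost bounds being -0.34 and 0.22. Other treatments of 0, of repeated columns and of scaling moved single spots further without a call: TNFRSF10B 91I18 reached -0.39, FADD 10M09 -0.28, FADD 08L21 -0.27, BCL2L1 52I13 -0.22 and TRAF3IP1 0.30. The split of signs depends on the scaling: without normalization 30 of 37 were positive, and 84.1% of all spots with them.

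Receptors gave 7 tested spots, 3 higher and 4 lower, none called. TNFRSF10B, a receptor for the death ligand TRAIL, read log2 2.05, 2.06, 1.97, 1.94 and 1.87 at spot 32I18 on the CaCo-2 TNF arrays and 2.003, 1.93, 1.91, 1.85 and 1.91 on the CaCo-2 control arrays. The groups overlapped (0.06 ± 0.05 SE, adjusted p = 1.00), and its other spot, 91I18, lay on the other side of 0 (-0.05 ± 0.03). The decoy receptor TNFRSF6B, which soaks up FAS ligand and LIGHT, averaged -1.46 ± 0.05 (SD) in CaCo-2 TNF and -1.46 ± 0.06 in CaCo-2 control arrays, n = 5 each. TNFRSF14, whose promoter is printed above, differed by 0.01 ± 0.03.

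Ligands gave 4 tested spots, none called. TNFSF10, which encodes TRAIL, averaged -0.49 ± 0.06 (SD) in CaCo-2 TNF and -0.50 ± 0.09 in CaCo-2 control arrays at spot 55B07 (n = 5 each). At its spot 28A17 the reading was -1.53 on CaCo-2 TNF 6 and -1.49 on control 5, the arrays that stand apart, and -1.87 to -1.78 on the other CaCo-2 arrays with a value. TNFSF13B (BAFF, a survival factor for B cells) differed by -0.02 ± 0.04 (SE) and TNFSF8 (CD30 ligand) by -0.03 ± 0.05.

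Adaptors and kinases gave 10 tested spots, 4 higher and 6 lower, none called, and they held both ends of the range over the 37 spots. TRAF6 read -2.71, -2.78 and -2.72 at spot 04D15 on CaCo-2 TNF arrays 1, 2 and 6, and -2.74, -2.91, -2.93 and -2.85 on CaCo-2 control arrays 1, 2, 4 and 5. Control 1, which deviates with TNF 1 and 2 across the membrane, fell inside the TNF range (0.12 ± 0.05 SE, unadjusted p = 0.0387, adjusted p = 1.00). TRAF4, a TRAF protein of epithelia, read -2.98, -2.99, -2.91, -3.02 and -2.89 at spot 29N19 on the TNF arrays and -2.86, -2.69, -2.94, -2.96 and -2.90 on the control arrays. The groups overlapped, control 2 being the highest (-0.09 ± 0.05).

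TRADD varied more between arrays of 1 group than between groups. At spot 95F20 the reading was -0.66, -0.68, -0.62, -0.14 and -0.27 on the CaCo-2 TNF arrays and -0.67, -0.31, -0.29, -0.27 and -0.33 on the CaCo-2 control arrays. TNF arrays 1, 2 and 4 and control 1 were low and the other 6 were high (-0.10 ± 0.11 SE, and -0.18 without control 1); what sets these arrays apart was not tested. FADD, the bridge to the caspases, differed by 0.0047 ± 0.03 at spot 10M09 and by 0.02 ± 0.03 at spot 08L21. TRAF7 differed by -0.06 ± 0.04 and -0.0092 ± 0.09 at its 2 tested spots, 25J13 and 50H02.

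Among TRAF-associated proteins, TRAF3IP1, which is also a component of ciliary transport, had values on 3 arrays a group: -2.72, -2.76 and -2.80 with TNF, against -2.87, -2.84 and -2.86 without. The other arrays of each group stood at 0, and the difference did not pass (0.09 ± 0.04 SE, unadjusted p = 0.0336, adjusted p = 1.00). The antisense RNA TRAF3IP2-AS1 differed by 0.09 ± 0.04 at spot 46G06, with overlapping groups; strand was not resolved, so RNA of the antisense gene and of its partner TRAF3IP2 cannot be told apart.

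Among the effectors of death and survival no spot was called. Of 4 caspase spots 2 were higher and 2 lower; CASP10, the close relative of CASP8, differed by 0.05 ± 0.05 (SE) at spot 07G11 and -0.04 ± 0.04 at spot 37C10. Of 7 BCL2 family spots 3 were higher and 4 lower, from -0.03 to 0.02. BCL2L1, which encodes the survival protein BCL-XL and its shorter death-promoting form, differed by -0.02 ± 0.05 at spot 50E10 and -0.0041 ± 0.04 at spot 52I13, and BCL2L11, which encodes the killer BIM, by 0.02 ± 0.04. BIRC6, a giant ubiquitin ligase that binds caspases, differed by 0.03 ± 0.03 at the 1 of its 4 spots that could be tested.

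**Figure D2:**
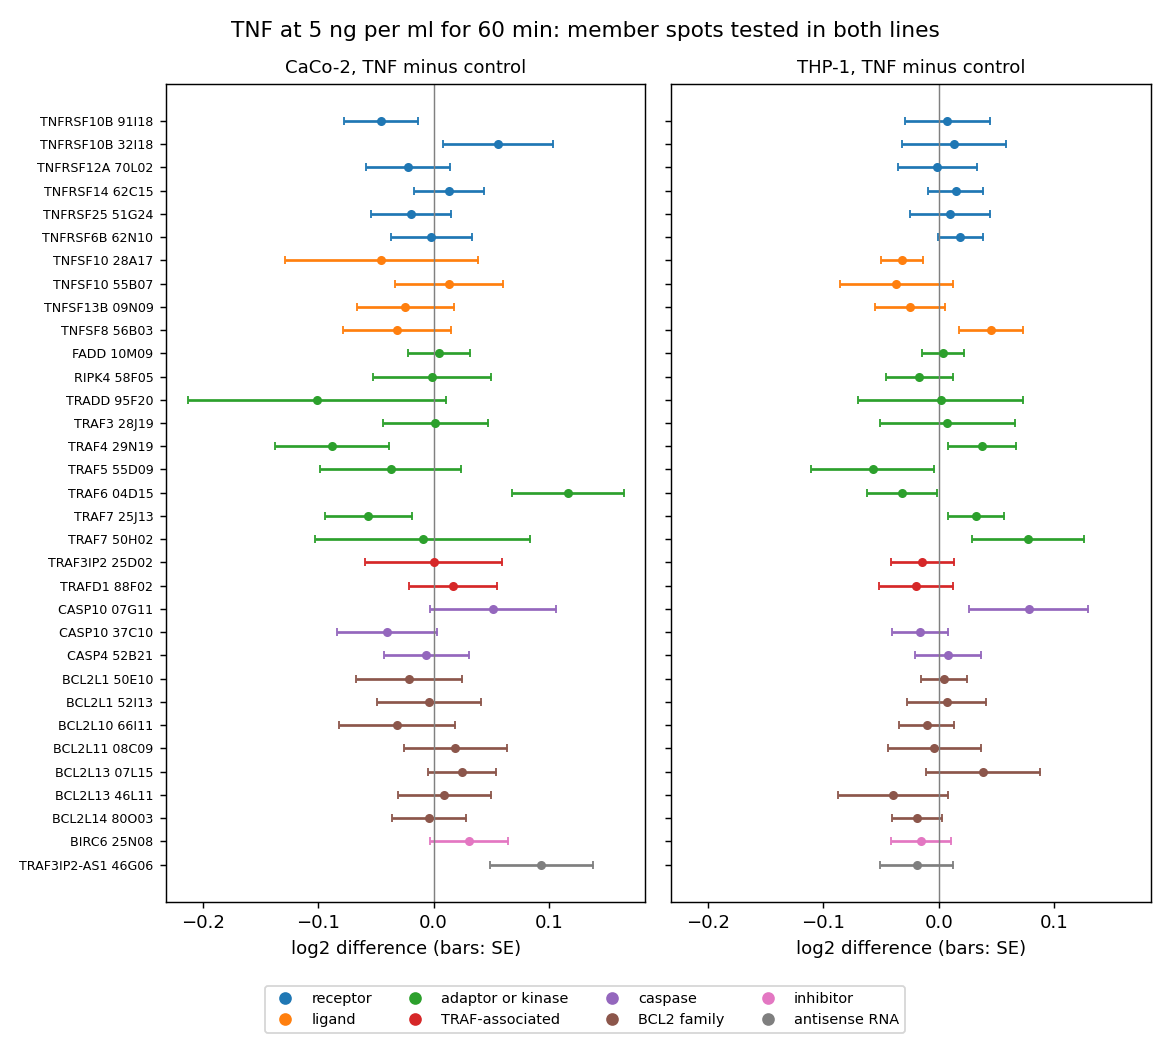
Log2 difference between TNF and control arrays (x axis, points; bars are the SE of the limma fit) for each spot tested in both lines (rows, coloured by role), with CaCo-2 on the left and THP-1 on the right. The points scatter around 0 in both lines, and many spots lie on opposite sides of 0 in CaCo-2 and THP-1. Among these are TRAF6 04D15, TRAF4 29N19 and TRAF7 25J13, and also TNFSF8 56B03, BIRC6 25N08 and both BCL2L1 spots.

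In THP-1 cells TNF likewise changed none of the genes past the threshold. Of 44 spots tested 0 were called, with percent called 0 over all 21989 spots tested, and at an unadjusted limma p under 0.05 there were 0 of 44 member spots against 544 spots (2.47%) overall. Log2 differences were above 0 at 26 spots and below at 18, with a median of 0.0042, against 0.0014 for all spots, and without normalization 15 of 44 were positive. For 43 of the 44 the 95% interval lay inside ±0.5. Under other settings, with no call, TRAF3 67O10 reached 0.52, BCL2L1 50E10 0.24 and TNFSF10 28A17 -0.23. The exception was TRAF3IP2-AS1 at spot 02P16 (0.29 ± 0.28 SE). There THP-1 control 3, after its division by 3, stood at -3.15 and the other THP-1 arrays with a value at -1.69 to -1.61. This spot was singled out after its values were seen.

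Receptors gave 7 tested spots in THP-1, 6 higher and 1 lower, all within 0.02 of 0. TNFRSF10B at spot 32I18 read 1.81 at the lowest, 1.96 at the median and 2.05 at the highest of the 7 THP-1 TNF arrays, and 1.84, 1.84, 1.97, 2.02 and 1.91 on the 5 THP-1 control arrays. These groups overlapped fully (0.01 ± 0.05 SE, adjusted p = 1.00). TNFRSF14 differed by 0.01 ± 0.02 and TNFRSF6B by 0.02 ± 0.02.

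Of 4 ligand spots 1 was higher and 3 were lower in THP-1. TNFSF10 at spot 28A17 read between -1.89 and -1.86 on 6 TNF arrays, with a median of -1.88, and -1.85, -1.86, -1.78, -1.85 and -1.87 on the control arrays. The difference of -0.03 ± 0.02 (SE) was -0.02 ± 0.02 without THP-1 control 3, the highest array. TNFSF8 differed by 0.05 ± 0.03, TNFSF13B by -0.02 ± 0.03 and the second TNFSF10 spot, 55B07, by -0.04 ± 0.05.

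Adaptors and kinases gave 12 tested spots, 8 higher and 4 lower. TRAF3 at spot 67O10 read -2.95 at the lowest, -2.91 at the median and -2.84 at the highest of 6 THP-1 TNF arrays, and -2.95, -3.24 and -2.88 on THP-1 control arrays 2, 3 and 7. The difference (0.12 ± 0.07 SE) rests on control 3, without which too few arrays remained for a test. As divided by 3, control 3 stood at an intensity of 0.0465 there, below the lowest positive reading of every other array. The other TRAF3 spot, 28J19, differed by 0.0075 ± 0.06. TRAF7, a ubiquitin ligase, read -0.30 at the lowest, -0.21 at the median and -0.06 at the highest of the TNF arrays at spot 50H02, and -0.19, -0.25, -0.39, -0.33 and -0.25 on the control arrays. The groups overlapped (0.08 ± 0.05, and 0.05 ± 0.05 without control 3). Spot 25J13 differed by 0.03 ± 0.02.

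TRADD differed in THP-1 by 0.0016 ± 0.07 (SE) at spot 95F20, which was -0.06 ± 0.06 without control 3, and by -0.0013 ± 0.03 at spot 43B24, and FADD by 0.0036 ± 0.02 at spot 10M09. TRAF5 differed by -0.06 ± 0.05 and TRAF6 by -0.03 ± 0.03 at spot 04D15, which was -0.0030 ± 0.02 without control 3. Of 7 caspase spots 6 were higher and 1 lower, from -0.02 to 0.08. CASP10 at spot 07G11 held the upper end (0.08 ± 0.05) and came to 0.03 ± 0.04 without control 3. As divided by 3, control 3 stood at -3.18 there, against -2.99 to -2.93 on the other control arrays. Of 9 BCL2 family spots 4 were higher and 5 lower, from -0.04 to 0.04, with both ends at BCL2L13, a mitochondrial relative, whose spots 46L11 and 07L15 differed in sign. BCL2L1 differed by 0.0048 ± 0.02 and 0.0068 ± 0.03 at spots 50E10 and 52I13, and BCL2L14 by -0.02 ± 0.02.

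The difference between the responses of the 2 lines was tested directly. Of 33 spots 0 were called, with percent called 0 over all 16931 spots tested; at an unadjusted limma p under 0.05 there were 2 of 33 member spots, against 411 spots (2.43%) overall. TRAF6 at spot 04D15 responded more positively in CaCo-2 than in THP-1 by 0.15 ± 0.06 (SE, unadjusted p = 0.0170, adjusted p = 1.00). Its CaCo-2 TNF values came only from arrays 1, 2 and 6, which deviate together with CaCo-2 control arrays. TRAF4 at spot 29N19 responded less positively in CaCo-2, by -0.13 ± 0.06 (unadjusted p = 0.0485, adjusted p = 1.00). TRAF3IP2-AS1 at spot 46G06 differed by 0.11 ± 0.06 and TRAF7 by -0.09 ± 0.05 (spot 25J13) and -0.09 ± 0.11 (spot 50H02). BIRC6 differed by 0.05 ± 0.04, TNFSF8 by -0.08 ± 0.05 and BCL2L13 by 0.05 ± 0.06 at spot 46L11. The median over the 33 was -0.01, against 0.0076 for all spots. The CaCo-2 and THP-1 responses therefore could not be told apart for any of these genes at this number of arrays. The 95% intervals reached at most -0.39 and 0.27 with the settings used throughout. Under other settings, with no call, the difference itself reached -0.36 at TNFRSF10B 91I18, -0.27 at FADD 10M09 and BCL2L1 50E10, and 0.27 at TRAF6 04D15.

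Between the lines 1 of 38 spots was called in the TNF-treated arrays and 0 of 38 in the unstimulated arrays, where percent called over all spots was 2.14 and 0.386, so the members' share is near the background. The spot called was 50E10 of BCL2L1, the BCL-XL gene, higher in TNF-treated CaCo-2 than in TNF-treated THP-1 cells. It read log2 -1.96, -2.003, -1.85, -1.98 and -1.86 on the CaCo-2 TNF arrays, against -2.10 at the lowest, -2.06 at the median and -2.02 at the highest of the 7 THP-1 TNF arrays. It read -1.9998, -1.78, -1.96, -1.97 and -1.84 on the CaCo-2 control arrays, against -2.09, -2.02, -2.08 and -2.07 on THP-1 control arrays 1, 3, 4 and 7. The highest THP-1 array lay below the lowest CaCo-2 array with and without TNF. Before quantile normalization the intensities overlapped, at 0.225 to 0.284 in CaCo-2 and 0.231 to 0.258 in THP-1. The THP-1 value of 0.258 is that of control 3 after its division by 3, and the highest of the other THP-1 arrays read 0.251.

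The BCL2L1 difference was 0.13 ± 0.03 (SE) between TNF-treated lines (limma adjusted p = 0.0353) and 0.16 ± 0.04 between unstimulated lines (adjusted p = 0.133), about 1.09 and 1.11 times. Calls over all spots were 365 higher and 79 lower in CaCo-2 among 20750 in the TNF-treated lines, and 48 higher and 27 lower among 19420 in the unstimulated lines. Over both treatments 1 of 33 spots had ranges that did not overlap between the lines, against 1.07% of all spots. The call was lost, at adjusted p = 0.160, when values at 0 were raised to the lowest reading of the array, at adjusted p = 0.9995 without normalization, with quantiles over values above 0 only, with the mean of both columns of a pair, when any 1 of THP-1 TNF 1, 2, 3, 4 or 6 or CaCo-2 TNF 4 or 6 was left out, and when CaCo-2 control 5 and TNF 6 were left out together. These are 12 of 28 alternatives at this spot, and the difference was positive in all 28, between 0.11 and 0.15. The 28 leave out the average over the spots of each gene, with which no gene described here was called in the TNF-treated lines. The second BCL2L1 spot, 52I13, gave 0.07 ± 0.05 with TNF (adjusted p = 0.427) and 0.08 ± 0.03 without (adjusted p = 0.229), with overlapping lines.

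**Figure D3:**
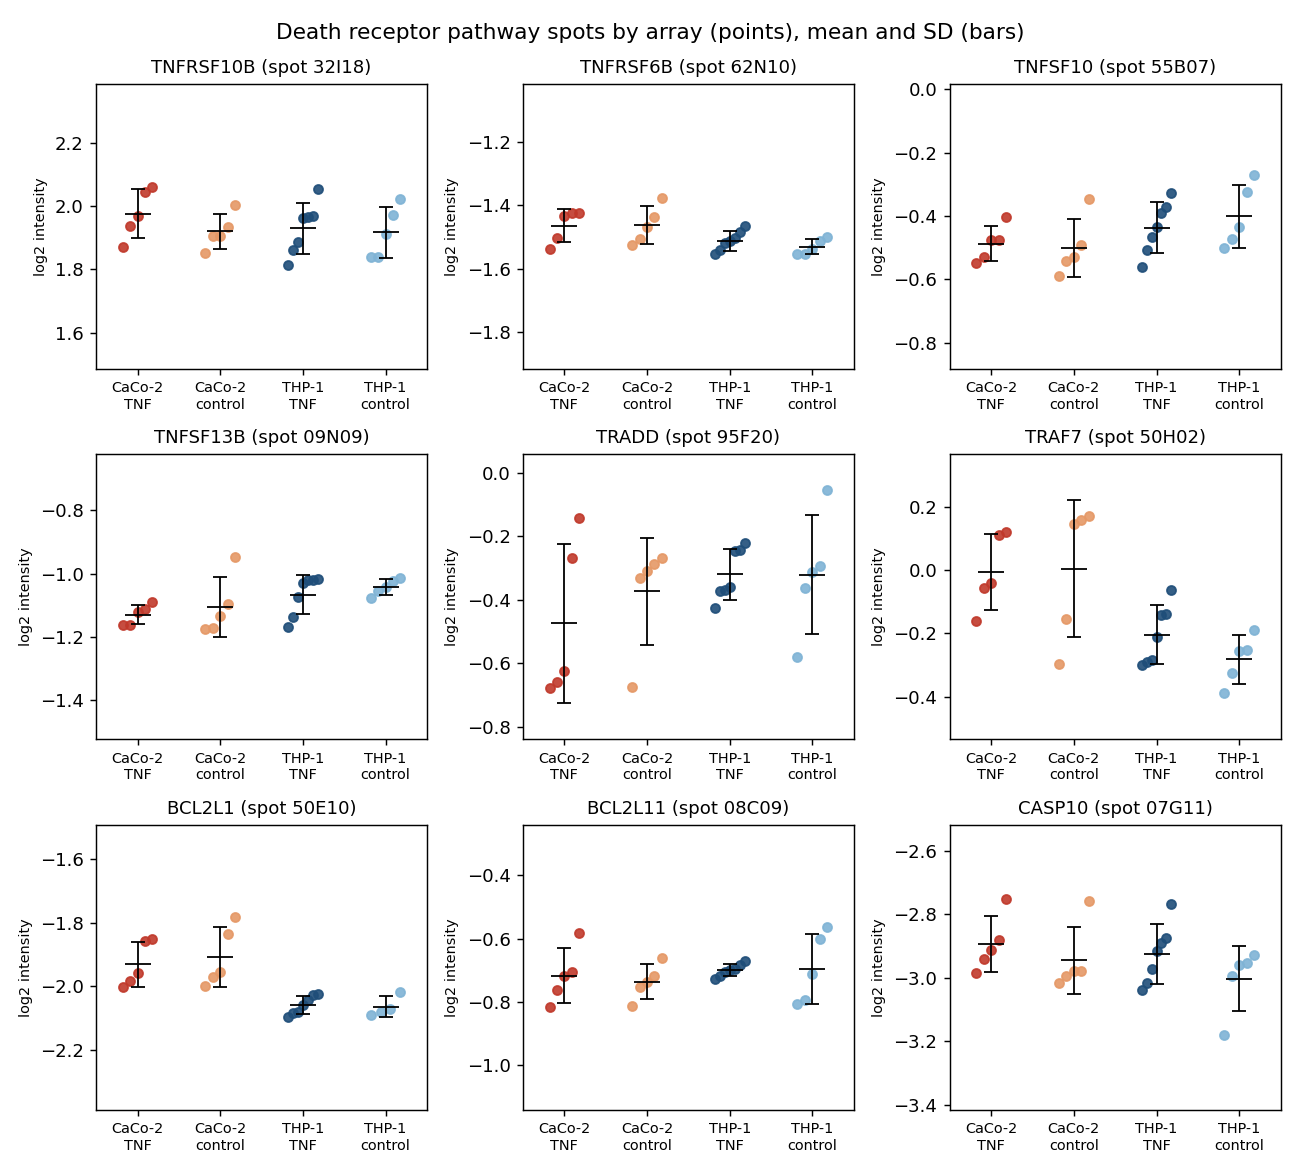
Normalized log2 intensity (y axis, each panel with its own range) on each array with a value (points, drawn from low to high within a group) of 9 spots in the 4 groups, with the mean and SD of each group as bars. BCL2L1 50E10 is the panel in which no THP-1 point reaches the CaCo-2 points, and TRADD 95F20 the one in which CaCo-2 TNF arrays fall into a low and a high set.

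Of the remaining survival and death genes, none was called between the lines with the settings used throughout. Under other settings TNFRSF12A 17J12 (0.28, adjusted p = 0.0414, with 0 raised to the floor), TRAF6 04D15, TRAF7 50H02 and TRAF3IP2-AS1 46G06 were called in the TNF-treated lines. At an unadjusted limma p under 0.05 there were 4 of 38 member spots in the TNF-treated lines (10.5%, against 20.4% of all spots) and 8 of 38 in the unstimulated lines (21.1%, against 17.7%). In the unstimulated lines 24 spots were higher in CaCo-2 and 14 lower, median 0.02, and in the TNF-treated lines 26 and 12, median 0.02; over all spots the medians were 0.02 and 0.03. These splits change with the scaling: without normalization 22 of 38 were higher in the TNF-treated lines and 7 of 38 in the unstimulated lines. The calls over all spots then were higher in CaCo-2 for 50 of 126 (TNF-treated) and 3 of 5 (unstimulated), with quantiles taken over values above 0 only for 91 of 134 and 6 of 21, and with array medians subtracted for 479 of 546 and 28 of 35.

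Among adaptors, TRAF7 at spot 50H02 read -0.06, -0.16, 0.12, -0.04 and 0.11 on the CaCo-2 TNF arrays, against -0.30 at the lowest, -0.21 at the median and -0.06 at the highest of the THP-1 TNF arrays. The lines overlapped, and the difference was 0.20 ± 0.06 (SE, adjusted p = 0.0717) with TNF and 0.29 ± 0.09 (adjusted p = 0.159) without; leaving out CaCo-2 control 1, the lowest CaCo-2 array at -0.30, gave 0.36 ± 0.07 (adjusted p = 0.0207). Spot 25J13 of TRAF7 gave -0.02 ± 0.03 and 0.065 ± 0.04. TRAF4 gave 0.02 ± 0.04 with TNF and 0.14 ± 0.05 without (adjusted p = 0.816 and 0.196) at spot 29N19, and -0.05 ± 0.03 without TNF at spot 10I19, the opposite sign. TRAF5 was below 0 each time, at -0.06 ± 0.06 and -0.08 ± 0.06. TRAF6 at spot 04D15 gave 0.12 ± 0.03 with TNF (adjusted p = 0.0741) and -0.03 ± 0.05 without (adjusted p = 0.765). Over 21 alternatives the TNF-treated value of TRAF6 ran from -0.23 to 0.23, below 0 with 0 raised to the floor, with pair means and with all columns, and it was called with medians subtracted (adjusted p = 0.0203), with array weights (0.0293) and without THP-1 TNF 8 (0.0319). FADD at spot 10M09 gave 0.06 ± 0.03 and 0.06 ± 0.02 (adjusted p = 0.236 and 0.112), and without normalization the unstimulated value was -0.05; the TNF-treated value reached -0.22 with pair means, and spot 08L21 gave 0.02 ± 0.02 in the unstimulated lines. TRADD at spot 95F20 gave -0.16 ± 0.08 (adjusted p = 0.311) and -0.05 ± 0.10 (adjusted p = 0.792), and the unstimulated value was 0.02 without CaCo-2 control 1.

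Among receptors, TNFRSF10B at spot 91I18 was 0.08 ± 0.02 higher on the log2 scale in unstimulated CaCo-2 than in unstimulated THP-1 cells (adjusted p = 0.148), but 0.03 ± 0.04 in the TNF-treated lines, and its spot 32I18 gave 0.05 ± 0.05 with TNF and 0.0036 ± 0.05 without. TNFRSF14 gave 0.06 ± 0.03 with TNF and 0.06 ± 0.02 without (adjusted p = 0.283 and 0.275), with the TNF-treated value at -0.21 under pair means, and TNFRSF25, a death receptor of lymphocytes, -0.05 ± 0.03 and -0.02 ± 0.04. Among ligands the 2 TNFSF10 spots went opposite ways: spot 28A17 gave 0.09 ± 0.05 with TNF and 0.10 ± 0.07 without, and spot 55B07 -0.05 ± 0.04 and -0.10 ± 0.06. TNFSF13B was lower in CaCo-2 by a similar amount each time (-0.06 ± 0.03 and -0.06 ± 0.04, adjusted p = 0.279 and 0.438). The caspase spots ranged from -0.06 to 0.03 in the TNF-treated lines and from 0.03 to 0.06 in the unstimulated lines, with no call.

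The TNF-treated and unstimulated comparisons use different arrays of the same lines. Nothing in the labels says that these came from separate cultures, and some CaCo-2 TNF and control arrays share deviations. The line differences in the 2 comparisons are therefore not independent measurements. Of 33 spots tested in both, 26 (78.8%) had the same sign, 19 higher and 7 lower in CaCo-2, against 13205 of 16931 (78%) over all spots. Across these spots the differences correlated at r = 0.69, against 0.70 over all spots, which describes spots of the same 22 arrays and not independent replicates.

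**Figure D4:**
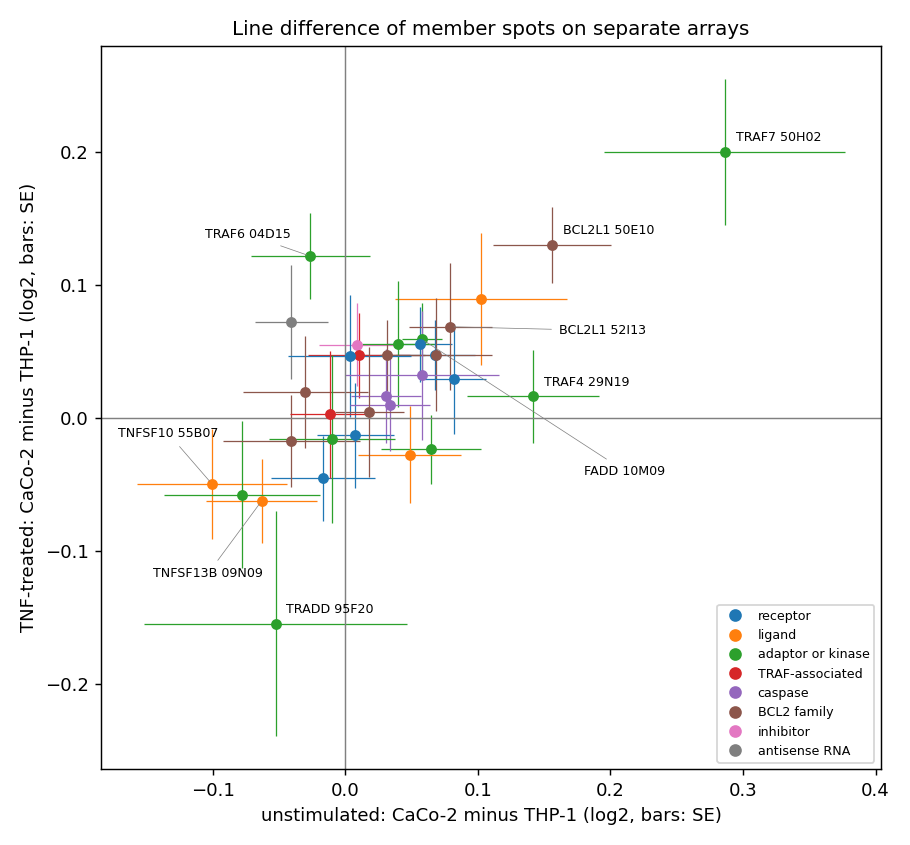
Log2 difference between CaCo-2 and THP-1 in TNF-treated arrays (y axis) against that in unstimulated arrays (x axis) for the 33 spots tested in both (points, coloured by role; bars are the SE of the limma fit). TRAF7 50H02 and BCL2L1 50E10 lie farthest up and to the right, and TRAF6 04D15 is higher in CaCo-2 in the TNF-treated arrays while its unstimulated value is near 0.

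Genes of the same pathway that the symbol rule leaves out were taken from a list of 67, of which 38 had a spot of their own (72 spots). None of the 40 spots tested in CaCo-2 or the 53 tested in THP-1 was called after TNF. At an unadjusted limma p under 0.05 there were 2 of 40 in CaCo-2 and 4 of 53 in THP-1, against 2.46% and 2.47% of all spots. IKBKG, the regulatory subunit of the kinase complex that frees NF-kB, differed by 0.08 ± 0.03 (SE) in CaCo-2 at spot 95G05 and by -0.02 ± 0.08 at spot 15K24, the first, with an unadjusted p of 0.0125 and an adjusted p of 1.00. TNF itself differed by 0.44 ± 0.12 in THP-1 (adjusted p = 1.00). Its spot was lower in TNF-treated CaCo-2 than in TNF-treated THP-1 cells (-0.49 ± 0.11, limma adjusted p = 0.0412). That was the 1 call among 41 list spots tested there, where 2.14% of all spots were called, so the list's share is near the background. MCL1, a survival relative of BCL2, differed by -0.12 ± 0.04 and 0.06 ± 0.03 at 2 spots in THP-1, so its spots disagree in sign. In the unstimulated lines 0 of 41 list spots were called, and the list's median line difference was 0.02, as over all spots.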

How the data were processed

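Radioactively labelled cDNA of CaCo-2 and THP-1 cells was hybridised to nylon cDNA arrays, according to the labels. Each deposited value is an intensity, judged linear from its range; image analysis, background treatment and scaling are each not given in the sources used here. Negative codes were set to missing. Paired columns were counted once, log2 was taken, and arrays were quantile normalized with 0 ranked lowest; readings at 0 were then missing. Spots with at least 3 measured arrays per group were fitted with lmFit and eBayes (variance trend; limma 3.58.1, R 4.3.3), and two-sided p-values were adjusted by Benjamini-Hochberg across every spot that entered the fit, at a threshold of 0.05. ± after a difference is its SE. Each comparison used its own groups, and the interaction all 4. The fits were tested on simulated data.

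How many arrays a group holds limits the precision. Of 34560 spots 18025 carry 1 gene symbol, 858 several and 15677 none; all 37 genes matched the RefSeq table (GRCh38.p14) by Entrez identifier. Members, lists and tests were chosen with earlier results of these data known. Named with values are core pathway genes (TNFRSF10B, TRADD, FADD, CASP8 and BCL2L1 had spots), each spot called, the 5 spots with the smallest p in each direction per comparison, and spots at 0 throughout 1 group but above 0 on at least 3 arrays of another; further spots illustrate a role or a disagreement between spots and were chosen after their values were seen. Alternatives covered the treatment of 0 and of paired columns, normalization, filters, weights, the replicate block and each array left out.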

Additional observations from a re-analysis of the deposited data

Results flagged for a closer look

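In 8 of 89 sets of 4 to 7 arrays, 1 array of a group lay far from the others at a spot of these genes on the log2 scale. Chance alone gives about 4.45 for normally distributed readings. The sets share arrays, so the 8 are not independent of each other. The arrays concerned came from all 4 groups. THP-1 control 3, the array divided by 3, held 3 of the 8: FADD spot 08L21 read -1.97 there, against -2.03 on the other 3 arrays with a value; CASP10 spot 07G11 read -3.18, against -2.99 to -2.93; and TNFSF10 spot 28A17 read -1.78, against -1.87 to -1.85. The arrays with the lowest highest readings held 2: CASP10 spot 07G11 read -2.76 on CaCo-2 control 5, against -3.02 to -2.98 on the other control arrays, and TNFSF10 spot 28A17 read -1.53 on CaCo-2 TNF 6, against -1.87 to -1.82 on the other TNF arrays. TRADD spot 95F20 read -0.67 on CaCo-2 control 1, against -0.33 to -0.27 on the other control arrays. TRADD spot 43B24 read -2.16 on THP-1 TNF 8, against -2.41 to -2.32 on the other TNF arrays. BIRC6 spot 25N08 read -2.76 on CaCo-2 TNF 1, against -2.83 on the other 3 arrays with a value.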

How the results depend on the processing

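No spot of these genes was called after TNF in either line, or in the difference between the responses of the lines, under any setting run. BCL2L1 50E10, called between the TNF-treated lines with the settings used throughout, kept its sign in every setting that tested it. TRAF6 04D15 did not: between the TNF-treated lines it was called above 0 under some settings and reached -0.23 under another. Over all spots the TNF counts were not stable: raising values at 0 to the array's floor gave 15 calls in CaCo-2 and 5 in THP-1, averaging both columns of a pair gave 16 and 1 with 5 for the difference of responses, averaging the spots of a gene gave 2, 1 and 1, and using all deposited columns gave 18 in CaCo-2 and 10 for the difference. Line calls over all spots (unstimulated first, then TNF-treated) came to 5 and 126 without normalization, 21 and 134 with quantiles over values above 0, 24 and 72 with pair means, 23 and 108 with gene means, 21 and 289 without the variance trend, 664 and 2728 with array weights, 309 and 732 with all 4 groups in 1 fit, and 11 and 238 with CaCo-2 control 5 and TNF 6 left out together (chosen after seeing the data). The unstimulated count alone moved to 155 with 0 at the floor, 35 with medians subtracted, 20 with at least 2 arrays and 336 with all columns, and the TNF-treated count to 834 with the pair under 2 labels kept. With the replicate number as a block the counts were 0 and 672, with 2 member spots called in the TNF-treated lines; same-numbered arrays of TNF-treated CaCo-2 and THP-1 correlated at r = 0.32, 0.28, 0.08, 0.31 and -0.01 in their deviations, and those of CaCo-2 TNF and control at 0.67, -0.30, 0.19 and -0.13, so the numbers were not taken to pair arrays. Member calls in the TNF-treated lines fell to 0 without normalization, with quantiles over values above 0, with pair or gene means and without the 2 arrays that stand apart, came to 2 with medians subtracted, the mixed pair kept or all columns, and to 4 with array weights. In the unstimulated lines they came to 2 with array weights and 1 with all 4 groups in 1 fit. Leaving out 1 array gave 0 to 1 calls over all spots in THP-1, 8 to 946 in the unstimulated lines (lowest without THP-1 control 7, highest without CaCo-2 control 1; member spots 0 to 2) and 113 to 1738 in the TNF-treated lines (lowest without THP-1 TNF 1, highest without THP-1 TNF 8; member spots 0 to 3), and 0 throughout for the other TNF counts. The cause was not tested. Readings at 0, 35.1% of those of these genes, limit which spots could be tested.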
